A study of Mus musculus with 37 samples.

Results

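The transcripts described here are the maternal messages that a mouse oocyte holds when fully grown and that were lower by at least 1 log2 unit in the ovulated MII egg. For each stage the mean of log2(FPKM + 1) was taken in control and in knockout libraries and the pair of means was averaged, and a gene entered when its fully grown oocyte (FGO) value exceeded its MII value by 1 or more. FPKM is fragments per kilobase of transcript and per unit of library size, a share of the library that holds no information on how much RNA a cell has. Of 55401 genes in the deposited data, 165 passed. Of these, 41 were left out by symbol, all of them genes or gene models named for cytoplasmic ribosomal proteins, and 124 were kept. The limit of 300 genes in the rule was never reached. The members were chosen by their FGO and MII values, so the fall from FGO to MII is given as a description without a test.

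The study deleted Bap1, which encodes the ubiquitin hydrolase that removes ubiquitin from histone H2A, with the genotype Gdf9-iCre, Bap1flox/flox. The Gdf9 promoter drives the recombinase in growing oocytes only, and controls were Bap1flox/flox without iCre, so both groups carried the floxed allele. Embryos came from these eggs and wild-type sperm, of B6 males up to the 2-cell stage and of PWK males at embryonic day 6.5, so knockout embryos lacked maternal Bap1 and had a paternal allele. Total RNA libraries were made from FGO, MII, late 1-cell (L1C) and late 2-cell (L2C) samples with 2 control and 3 knockout libraries each, and from early 2-cell (E2C) embryos with 3 of each. Poly(A) libraries came from epiblast (EPI) and visceral endoderm (VE), with 2 of each genotype, and from extraembryonic ectoderm (EXE), with 1 control and 2 knockouts. Embryos were cultured in KSOM. The labels give neither the age or background of the females nor the number of oocytes or embryos in a library, and nothing in them says that libraries of a group came from separate animals, so p-values measure the spread between libraries, which may be technical.

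During growth the oocyte stores messages that must last until the embryo transcribes its own genome. Transcription stops in the fully grown oocyte, and meiotic maturation from the germinal vesicle stage to the MII egg proceeds on stored RNA, part of which is translated after its tail is lengthened and part of which is deadenylated and destroyed. Libraries of total RNA are not selected for the poly(A) tail. A second wave of clearance follows fertilization, and in the mouse the embryo's own genome becomes broadly active at the 2-cell stage.

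Of the 124 genes 91 were protein-coding and 24 were processed pseudogenes, which made up 19.35% of them against 8.489% of the genes tested. By annotation the other 9 were 7 long intergenic RNAs, 1 bidirectional promoter RNA and 1 small RNA. The 7 include Bc1, although it is short. The single gene that fell most was Bc1, brain cytoplasmic RNA 1, a short RNA polymerase III transcript known in neurons as a repressor of translation. Bc1 is shown whole because it fell by far more than any other member. It lies on the plus strand of chr7:144914470-144914637 in GENCODE M21 on GRCm38, as 1 transcript of 168 bases, and the capitals mark its longest run of A, 23 bases.

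Bc1: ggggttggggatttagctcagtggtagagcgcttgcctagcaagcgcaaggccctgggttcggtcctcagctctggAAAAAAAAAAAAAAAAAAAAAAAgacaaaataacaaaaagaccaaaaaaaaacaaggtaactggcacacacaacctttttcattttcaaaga

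The coding members were short messages with short 3′ untranslated regions, a property the rule did not use. Among the 88 with a complete annotated coding transcript the median 3′ untranslated region was 178.5 bases, against 998 bases over 11648 coding genes tested. It was under 100 bases in 37 members, 42.05%, against 5.984% of genes, and over 1000 bases in 13 members, 14.77%, against 49.92%. The whole transcript had a median of 1402 bases against 2992, with 5 exons against 9, a coding part of 720 against 1380 bases and a GC content of 53.8% against 49.75%. The sets were not matched on their FGO level. In control FGO the median log2(FPKM + 1) was 3.978 over all members and 2.333 over all genes tested. The part of that level in these contrasts was not tested. One transcript was used per gene, and the annotation behind the deposited values is not given in the sources used here, so ends used in oocytes may be others. Over all coding genes the FGO minus MII difference had a median of 0.105 where the region was under 100 bases, 0.0249 from 100 to 300, −0.00577 from 300 to 1000, −0.0142 from 1000 to 3000 and −0.0221 beyond. With the members and the ribosomal protein genes set aside, the first of these medians was 0.0581.

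**Figure D1:**
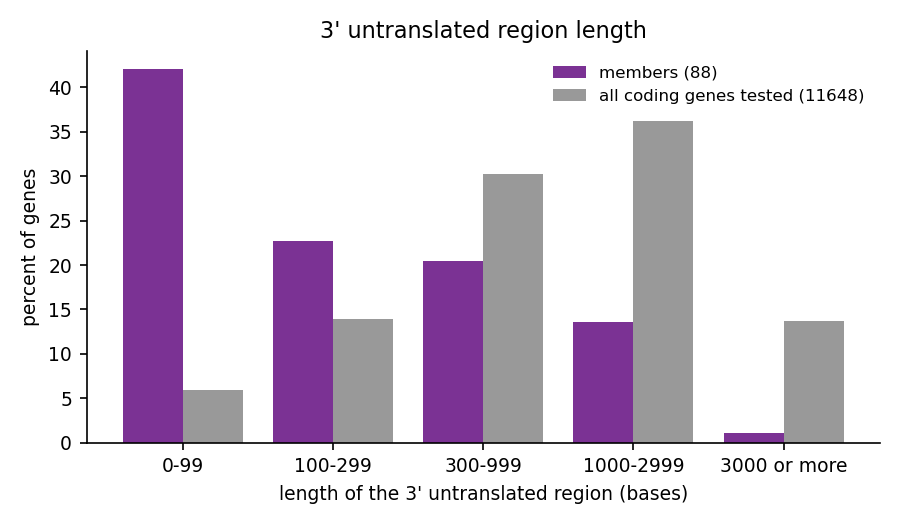
Length of the 3′ untranslated region in bases (horizontal axis, 5 bins) for the 88 coding members (purple) and the 11648 coding genes tested (grey), as percent of each set. The shortest bin, under 100 bases, holds 42.05% of the members and 5.984% of the genes.

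Windows of at most 30 bases around the polyadenylation signal are shown for some of the members described below, since the annotated region of several of them is hardly longer than this window. Capitals mark the signal AATAAA, and each sequence is written as DNA, 5′ to 3′. The Fbxw sequences are from neighbouring genes of 1 family. Fbxw21 of that family and Med29 are not shown. Their annotated 3′ regions of 911 and 636 bases hold no AATAAA or ATTAAA in the last 60 bases.

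Khdc3: cacaatttaaagtattctAATAAAaaaaaa
Ndufa11: gccaaacccctgtgacaAATAAAcgctgta
Atp5o: tcttgtccttggagcaacAATAAAatgctt
Psmb6: cataccgacgcagaagctAATAAAcagttt
Dnmt1: gttgtaatatttcttcaaAATAAAgcgctt
Fbxw13: gtattcttcctcgatgatAATAAAagtcta
Fbxw16: gtcatcttcctcaatgatAATAAAggtcta
Fbxw18: gtcctcttcctcaatgatAATAAAggtcta
Fbxw19: gtccttttccttaatgatAATAAAgatata

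The annotated 3′ region of Ndufa11 is 40 bases, that of Fbxw13 52, that of Fbxw19 54, that of Atp5o 64 and that of Psmb6 70. Zp3 has 13 bases. Motifs were searched on the sense strand in the last 200 bases of the 40 members whose 3′ region reaches that length, beside 10104 coding genes. TATTTAT, the core of AU-rich elements, was in 12.5% of these members and 8.086% of genes. TGTANATA, the Pumilio element, was in 2.5% and 8.61%. TTTTAT, a cytoplasmic polyadenylation element that can overlap a polyadenylation signal, was in 20% and 24.57%. AATAAA was in 57.5% and 69.77%. A match is a description of letters and not of a bound site, and 5 members hold TATTTAT and 1 holds TGTANATA.

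Some members share sequence with other genes, which bears on how reads can be divided. Of the 124, 38 share at least 20% of their words of 50 bases with another annotated gene and 23 share at least 50%. Exons overlap another gene on the same strand in 13 members and on the opposite strand in 35, and whether counting used the strand is not given in the sources used here. Values of such members are uncertain. Examples are Gm2000, 85.1% of whose words are in Rpl35, H2bc15, which shares 86.45% with other histone genes, Tuba3a and Tuba3b, which share 32.4% of Tuba3a, and Khdc3, which overlaps Gm20509. Among the members described at length Bc1 (31.09%), Dppa5a (38.6%) and Pin4 (57.4%) also share 20% or more, so their values carry the same uncertainty. By exon overlap Atp5o carries it too, with other genes on both strands. Pet100, Ndufa11, Ndufa9, Med29, Atp5j, Pfdn6, Nlrp2 and Tuba3a, among others, overlap a gene on the opposite strand. Results below are given for the 86 members under 20% shared sequence where a count turns on that share. Members with overlapping exons were not set aside.

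Bc1 was present at 77.8 and 209 FPKM in the control FGO libraries and at 76.9, 82.6 and 85.9 in the knockouts. In MII eggs it was at 0.987 and 0.466 in controls and 1.64, 1.03 and 0.494 in knockouts, so that every MII library lay far below every FGO library. Averaged over genotypes its log2 value fell by 5.80. Zp3, a glycoprotein of the zona pellucida to which sperm attach, was at 387 and 476 FPKM in control and 329, 406 and 340 in knockout FGO, and at 67.6 to 83.4 in MII, a difference of 2.34.

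Upp1, uridine phosphorylase, had a difference of 2.17 and Pet100, an assembly factor of cytochrome c oxidase, one of 2.15. Khdc3, a member of the subcortical maternal complex, had 2.13 and Ndufa11, an accessory subunit of respiratory complex I, 2.12. Khdc3 lay at 159 to 234 FPKM over the FGO libraries and at 33.5 to 53.3 in MII, and Ndufa11 at 37.9 to 41.9 and 5.93 to 10.7. Hint3, a histidine triad protein, had 2.00, Naa38, an auxiliary subunit of an N-terminal acetyltransferase, 1.99, Ftdc2 1.98, Pafah1b3, a catalytic subunit of a platelet-activating factor hydrolase, 1.96, and Atp5o, a stalk subunit of the mitochondrial ATP synthase, 1.85. A second gene model that also carries the name Atp5o is listed at 0 in the table and is not meant here. At the limit of the rule Dnmt1, the maintenance DNA methyltransferase, had 1.01, and Rnaseh2a and Aass had 1.00. Just outside it were Septin12 at 0.9990, Ranbp2 at 0.9960 and Mdh2 at 0.9703.

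By role the members were scattered. Respiratory chain and ATP synthase genes numbered 7 of 104 tested (Ndufa2, Ndufa9, Ndufa11, Ndufs7, Uqcr11, Atp5j and Atp5o), and the list as a whole had a median FGO minus MII difference of 0.2112. Proteasome genes numbered 3 of 38 (the core subunits Psmb1, Psmb3 and Psmb6), with a list median of 0.1353. Oocyte-specific products numbered 4 of 44 (Zp2, Zp3, Khdc3 and Nlrp2), with a list median of 0.04819. One gene each came from the lists of mitochondrial ribosome (Mrpl52, list median 0.05642), spliceosome (Snrpd2, 0.02391), secretory pathway (Cope, 0.04813), replication-dependent histones (H2bc15, 0.2291) and oocyte translational control (Cpeb1, 0.007462). The lists of mRNA decay, meiotic arrest, translation factors, chaperones, cumulus markers and Polycomb genes gave 0 members, with medians of −0.004234, −0.07876, 0.03273, 0.01219, 0.07377 and −0.1191. The median over all genes tested was 0. The 83 cytoplasmic ribosomal protein genes, which the rule leaves out, had a median of 0.6931.

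The genes lie on many chromosomes, most on chromosome 7 with 15 and chromosome 9 with 14. On chromosome 9, between 109139447 and 109702700 (GENCODE M21, GRCm38), Fbxw21, Fbxw13, Fbxw16, Fbxw19 and Fbxw18 are all members and all on the minus strand. They encode proteins with an F-box and WD40 repeats, the form of ubiquitin ligase adaptors, and as a family they are expressed in oocytes. Their FGO minus MII differences were 1.43, 1.23, 1.24, 1.35 and 1.11. Their relatives Fbxw15, at 0.945, and Fbxw23, at 0.817, fell short of the limit. These 5 genes were grouped here after their values were seen.

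Bap1 itself was at 16.3 and 29.2 FPKM in control FGO and at 4.98, 3.76 and 4.49 in knockout FGO. Its log2 difference was −2.09 ± 0.16 (SE) in FGO, −2.40 in MII, −2.09 in L1C, −1.77 in E2C and −1.04 in L2C, all below controls at adjusted p from 9.49e-11 to 0.00347 in limma. The total RNA libraries had 10353 to 11942 genes at 1 FPKM or more. Of 8 oocyte markers, Zp2 and Zp3 are members. Their sum was 2989 to 3538 FPKM in FGO and was 479 to 504 in control and 778 to 908 in knockout L2C embryos. Of 26 cumulus and granulosa markers 6 were high enough to be tested, none is a member, and their sum in FGO was 79.2 to 88.1 FPKM in controls and 59.4 to 67.2 in knockouts. Most of that sum was Serpine2, at 41.1 to 57.6 in FGO and 48.7 to 59.3 in MII, and Nr5a2, at 12.2 to 17.8 and 14.4 to 19.3. Of the 5 defining ones Cyp19a1 carried most of a sum of 6.50 to 7.62 against 2.18 to 2.60, while Inha was 0.285 to 0.968 in FGO and 0 in every MII library. Amh, Fshr and Foxl2 reached at most 0.288, 0.106 and 0.101 in FGO. The sum of these 5 also differed between genotypes later, at 4.28 to 5.64 against 1.38 to 1.75 in MII and 4.55 to 6.18 against 1.57 to 2.19 in L1C. The part of these markers in the members' results was not tested.

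As a description, the members' levels were lower at each later stage from FGO to E2C and higher again in L2C, in both genotypes. Together they summed to 5044 to 5783 FPKM in FGO, 1805 to 2151 in MII, 1083 and 1097 in control L1C and 1248 to 1479 in knockout L1C. The sums were 567 to 679 in E2C, 1011 and 1024 in control L2C and 907 to 928 in knockout L2C. In these sums the genotypes overlapped at FGO, MII and E2C. They stood apart at L1C, with knockouts higher, and at L2C, with knockouts lower. As percent of each library's summed FPKM the members held 0.340 and 0.334 in control L1C and 0.399 to 0.466 in knockout L1C. In L2C they held 0.253 and 0.235 in controls and 0.238 to 0.250 in knockouts, so on that scale the genotypes overlapped in L2C. Relative to its own FGO level the median member was at 36.4% in control and 32.7% in knockout MII, 14.3% and 18.2% in L1C, 10.4% and 8.78% in E2C, and 25.3% and 15.0% in L2C. Control FPKM sums in L1C and L2C differed little from each other although single members moved far. As percent of summed FPKM, given above, the members were lower in control L2C than in control L1C. By mean log2 value 15 members exceeded their FGO level in control L2C and 6 in knockout L2C.

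**Figure D2:**
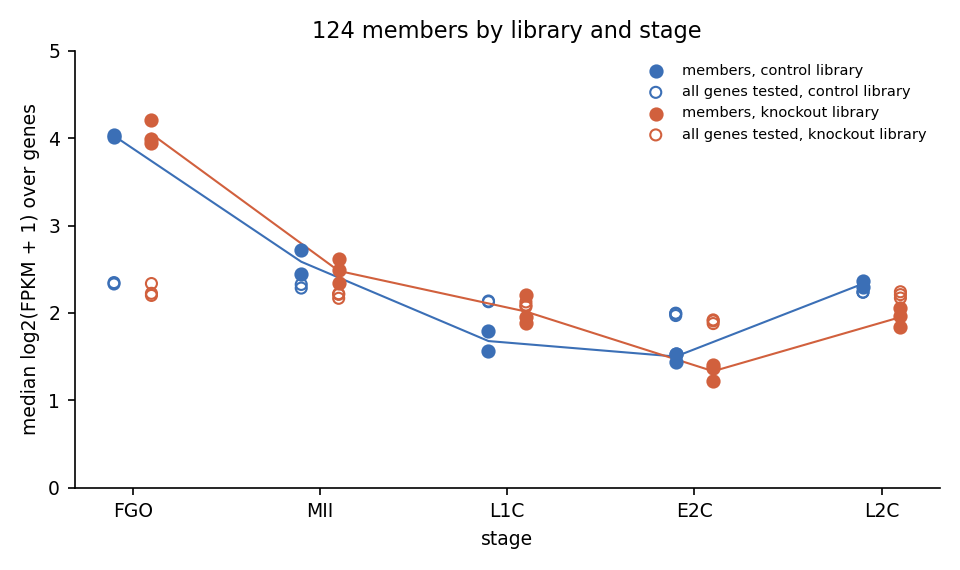
Median log2(FPKM + 1) over the 124 members in each library (filled points) and over all genes tested (open points) by stage, with controls in blue and knockouts in orange, and lines through the means of the library medians. The members start above the other genes in FGO, lie below them in control L1C and in E2C, and return in control L2C to the level of all genes tested.

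The first question was whether the members fell by a different amount without Bap1. The fall was 0.0747 to 6.235 log2 units in controls, with a median of 1.24, and 0.5253 to 5.369 in knockouts, with a median of 1.348. It was above 0 in all 124 in both, and at least 1 in 93 members in controls and in 113 in knockouts. These counts come from the values that chose the members, some of which passed mainly through 1 genotype, such as Gm10059 with a fall of 0.0747 in controls and 1.9486 in knockouts, so nothing is read from their difference. The difference of the knockout effect between MII and FGO was called at adjusted p under 0.05 in limma for 0 of 123 members and for 0.00% of all 15184 genes, and at an unadjusted p under 0.05 for 20 members and 1678 genes. Fitted on FGO and MII alone it was again called for 0 members, with 13 members and 1092 genes at an unadjusted p under 0.05. Without FGO control replicate 1 it was called for 1 member. Mroh2b showed the smallest fall in knockouts, 0.5253 against 1.6853 in controls, with an adjusted p of 0.3086 for the difference. The control and knockout libraries number 2 and 3, so the mean used to choose members and the knockout difference share libraries at these stages.

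Knockout differences in FGO were few. Mroh2b was at 11.5 and 9.12 FPKM in controls and 1.90, 2.05 and 1.27 in knockouts, a log2 difference of −2.05 ± 0.31 (SE, adjusted p = 7.64e-05). The rule used these FGO values, and Mroh2b fell by 1.6853 in controls and 0.5253 in knockouts. It entered through high control FGO values, so its FGO difference is partly built into the choice and is no result about the members. Upp1 was at 73.2 and 69.3 FPKM in controls and 40.4, 35.0 and 37.6 in knockouts, −0.90 ± 0.17 (adjusted p = 0.000797). Pet100 was at 16.4 and 15.1 in controls and 11.0, 8.20 and 9.29 in knockouts, −0.68 ± 0.18 (adjusted p = 0.0115). In these 3 genes no knockout library reached a control library. Pet100 missed the threshold without control replicate 1 (−0.63), control replicate 2 (−0.74) or knockout replicate 2 (−0.59). Zp2 was also lower, at 364 to 422 FPKM against 448 and 548 (−0.36, adjusted p = 0.0475), but not in a fit of FGO alone (adjusted p = 0.1285).

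In all, 6 of 123 members were higher and 4 lower in knockout FGO, beside 3.91% and 9.97% of all genes. A fit of FGO alone called 0 higher and 4 lower, beside 1.34% and 7.00%. Without control replicate 1 the higher count was 0, without control replicate 2 it was 2 and the lower count 2, and without knockout replicate 2 the higher count was 13. The 6 higher members (Gm10059, Gm12778, Gm12034, Fam25c, Gm8430 and Gm4294) are clone-named models apart from Fam25c. The rule used the FGO values, and 4 of the 6 had a fall under 1 in controls (0.0747 to 0.8033) and over 1 in knockouts (1.534 to 1.9486), so that they entered through high knockout FGO values and their count is no result about the members. The members had a median knockout difference of 0.03936, near the all-gene median of 0, and 48 of them had no overlap between the genotypes, beside 41.8% of all genes. Centring each library on its median gave 14 members higher and 3 lower, and over all genes it turned 593 higher and 1514 lower calls into 1153 and 1032. Scaling to an equal sum gave 1 and 2 members.

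MII eggs again had low Upp1, at 14.3 and 16.4 FPKM in controls and 7.20, 8.91 and 6.41 in knockouts, a difference of −0.95 ± 0.15 (SE, adjusted p = 0.000114). Pin4, a peptidyl-prolyl isomerase, was at 7.49 and 10.2 FPKM in controls and 4.20, 4.84 and 3.92 in knockouts, −0.88 ± 0.19 (adjusted p = 0.00211). The rule used these MII values, and Pin4 fell by 0.9065 in controls and 1.4281 in knockouts. It entered through low knockout MII values, so its MII difference is partly built into the choice and is no result about the members. Khdc3 was at 46.5 and 53.3 against 39.5, 41.2 and 33.5, −0.38 ± 0.13 (adjusted p = 0.0456), and its adjusted p was 0.0616 in a fit of MII alone. All 3 genes had every knockout library below both controls. Pin4 missed the threshold without control replicate 2 (−0.68), and Khdc3 missed it without any one of the 5 libraries (−0.48 to −0.29).

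Over the members 2 were higher and 6 lower in knockout MII eggs, beside 6.57% and 10.2% of genes, and 0 and 2 in a fit of MII alone, beside 4.17% and 7.84%. The rule used the MII values as well, so these counts are a description of the chosen genes and no result about the members. The higher members were Dph7 and Fam25c. Without control replicate 1, control replicate 2 or knockout replicate 2 the higher count was 1, and without knockout replicate 1 it was 4. Without control replicate 2 the lower count was 2. Upp1 and Mroh2b were lower at both FGO and MII, Mroh2b in MII with an adjusted p of 0.0325, or 0.1097 in a fit of MII alone. The median difference was −0.04647 over members and 0.05883 after centring, which moved the all-gene median to 0.1053, gave 6 members higher and 2 lower, and turned 998 higher and 1547 lower calls over all genes into 2187 and 1114. Scaling to an equal sum gave 4 members each way. No overlap was seen in 35 members, beside 41.7% of genes.

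In late 1-cell embryos every member that passed the test was higher in knockouts. Marchf7, an E3 ubiquitin ligase, was at 8.02 and 7.73 FPKM in controls and 16.3, 17.7 and 12.6 in knockouts, a log2 difference of 0.89 ± 0.14 (SE, adjusted p = 7.43e-05). Atp5j, a coupling subunit of the ATP synthase, was at 5.53 and 6.87 in controls and 10.3, 9.39 and 10.0 in knockouts, 0.61 ± 0.13 (adjusted p = 0.00169). Ndufa9, a complex I subunit, was at 1.76 and 2.46 in controls and 4.66, 4.99 and 4.37 in knockouts, 0.87 ± 0.17 (adjusted p = 0.000905). These 3 were called in a fit of L1C alone as well, with every knockout library above both controls. Atp5j missed the threshold without control replicate 1 (0.47).

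Dppa5a, a KH-domain protein of pluripotent cells, was at 4.29 and 5.84 FPKM in controls and at 14.3, 7.55 and 6.60 in knockouts, 0.73 ± 0.23 (adjusted p = 0.0320). Knockout replicate 1 was the highest, and a fit of L1C alone gave an adjusted p of 0.1364. The call was also lost without knockout replicate 1 (0.42), control replicate 1 (0.54) or control replicate 2 (0.92). Psmb1, a proteasome core subunit, was at 5.38 and 5.43 in controls and 9.96, 7.98 and 7.17 in knockouts, 0.54 ± 0.14 (adjusted p = 0.00953). Among oocyte products, Nlrp2, at 12.2 and 13.1 FPKM in controls and 14.7 to 18.9 in knockouts, was called higher (0.36, adjusted p = 0.0464, or 0.0840 in a fit of L1C alone), while Zp3 at 26.5 and 26.2 against 30.8 to 39.3 was not (adjusted p = 0.0827), nor were Zp2 (adjusted p = 0.539) and Khdc3 (adjusted p = 0.534). Bc1, at 3.92 and 1.89 FPKM in controls and 0.614, 0.857 and 3.86 in knockouts, overlapped between genotypes.

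Of 123 members 22 were higher and 0 lower in knockout L1C, beside 7.60% and 10.0% of all genes. A fit of L1C alone called 15 of 95 higher and 0 lower, beside 6.22% and 8.71%, and 9 members were called in both fits. Without array weights the higher count was 6, and with no filter on low values it was 9. The difference was above 0 in 102 members, 82.93%, against 51.8% of genes, with a median of 0.2355 against 0.0105. Among members under 20% shared sequence 15 of 85 were higher and 73 above 0. The count without control replicate 1 was 9, without control replicate 2 it was 7 and without knockout replicate 1 it was 13 with 1 lower, while the median stayed between 0.179 and 0.267 over all 5 left-out libraries, with 92 to 101 members above 0. No overlap between genotypes was seen in 63 members, beside 43.0% of genes.

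By role, 4 of 7 respiratory members were higher and all 7 were above 0, from 0.174 to 0.875, while 25 of the 104 genes of that list were higher and 1 lower. The left-out ribosomal protein genes moved in the same direction, with 39 of 83 higher, 0 lower and a median of 0.43. Proteasome genes were higher in 9 of 38, mitochondrial ribosome genes in 9 of 79, spliceosome genes in 8 of 58 with 2 lower, translation factors in 11 of 71 and secretory pathway genes in 5 of 40 with 1 lower. Chaperones were higher in 10 of 67 and lower in 6, histones higher in 6 of 65, and oocyte-specific products higher in 8 of 44 and lower in 7. Among decay genes 5 of 40 were higher and 4 lower, among translational control genes 7 of 28 and 2, among meiotic arrest genes 3 of 36 and 5, among Polycomb genes 0 of 34 and 4, and among cumulus markers 0 of 6 and 2. Across the members the size of the fall and the L1C difference had a Spearman correlation of −0.155 over 123 genes measured in shared libraries, given as a description, against 0.183 over 15184 genes.

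**Figure D3:**
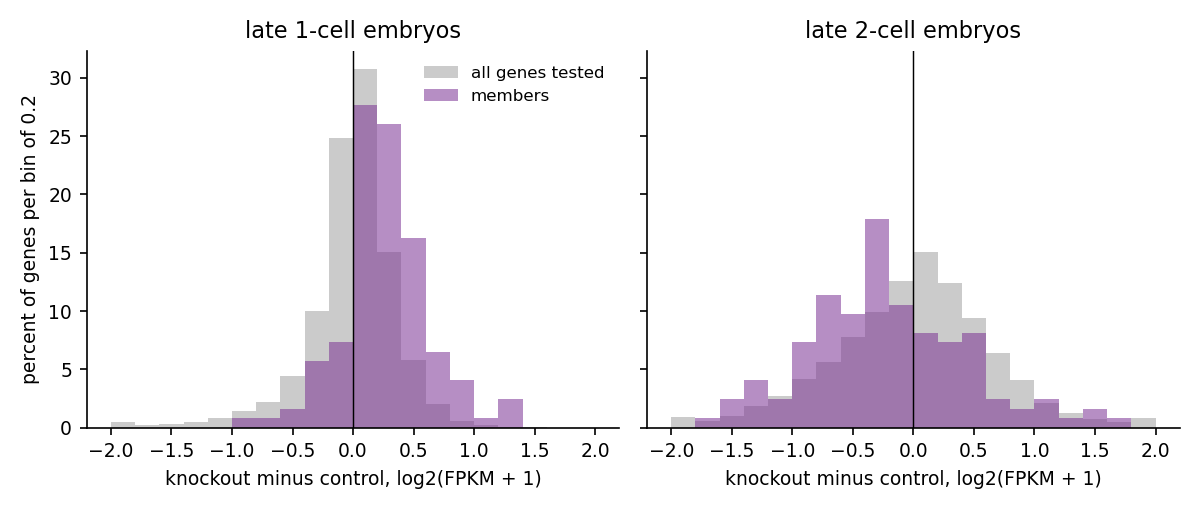
Distribution of the knockout minus control difference in log2(FPKM + 1) for the 123 members tested (purple) and all 15184 genes tested (grey), as percent of genes per bin, in late 1-cell embryos (left) and late 2-cell embryos (right), with values beyond 2 placed in the end bins. The members lie to the right of the genes in late 1-cell embryos, at a median of 0.2355, and to the left in late 2-cell embryos, at −0.2942.

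In early 2-cell embryos the members were low in both genotypes and few differed. Dnmt1 was at 34.5, 39.6 and 40.2 FPKM in controls and 48.4, 69.8 and 49.0 in knockouts, a difference of 0.52 ± 0.16 (SE, adjusted p = 0.0358). Use1, a SNARE protein of the endoplasmic reticulum, was at 2.44, 1.79 and 1.96 in controls and 4.86, 8.69 and 3.17 in knockouts, 1.02 ± 0.30 (adjusted p = 0.0288). Both had every knockout library above every control, and both missed the threshold in a fit of E2C alone (adjusted p = 0.0721 and 0.0673). Dnmt1 missed it without any 1 control (0.45 to 0.56) or without knockout replicate 2 (0.35), and Use1 without any 1 control (0.96 to 1.11), knockout replicate 1 (1.06) or knockout replicate 2 (0.70).

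In total 4 members were higher and 4 lower in knockout E2C, beside 6.20% and 7.28% of genes, and 1 and 3 in a fit of E2C alone, beside 4.25% and 5.87%. The other higher members were Ftdc2 and Ppil3, and the lower ones were Pym1, Gm45184, Gm31816 and Med29. The higher count was 0 without control replicate 1, control replicate 3 or knockout replicate 2 and 1 without control replicate 2. The lower count was 2 without control replicate 1, knockout replicate 2 or knockout replicate 3. The median member difference was −0.07478, or 0.009301 after centring, which gave 8 higher and 3 lower members and 1386 and 899 calls over all genes in place of 941 and 1105. Equal sums gave 6 and 3. Mroh2b, at 2.62, 3.57 and 2.79 FPKM in controls and 0.125, 0.261 and 0.473 in knockouts, did not overlap but missed the threshold (adjusted p = 0.0505), which it passed in a fit of E2C alone (adjusted p = 0.00616). In all 22 members had no overlap, beside 29.7% of genes.

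Late 2-cell embryos divided the members. Dppa5a was at 25.2 and 18.4 FPKM in controls and 7.20, 5.45 and 6.02 in knockouts, a log2 difference of −1.65 ± 0.37 (SE, adjusted p = 0.00173). Atp5o was at 14.0 and 18.8 in controls and 5.60, 4.98 and 4.31 in knockouts, −1.54 ± 0.36 (adjusted p = 0.00226). Pfdn6, a subunit of the prefoldin chaperone, was at 18.3 and 17.7 in controls and 7.23, 4.60 and 5.40 in knockouts, −1.51 ± 0.30 (adjusted p = 0.000606).

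In each of these 3 genes the lowest control exceeded the highest knockout, and a fit of L2C alone gave adjusted p of 0.000526, 0.000682 and 0.000801. Tuba3a, an alpha tubulin, went the other way, at 4.20 and 2.68 FPKM in controls and 10.4, 13.5 and 10.8 in knockouts, 1.52 ± 0.18 (adjusted p = 1.56e-06). Fbxw21 was at 10.2 and 11.4 in controls and 29.2, 23.2 and 22.1 in knockouts, 1.12 ± 0.22 (adjusted p = 0.000389). Ftdc2 was at 2.52 and 3.19 in controls and 7.34, 5.66 and 8.23 in knockouts, 1.06 ± 0.23 (adjusted p = 0.00127). The last 3 genes had every knockout library above both controls.

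Within 1 family or complex the direction was shared in some cases and not in others. Fbxw13, Fbxw21 and Fbxw19 were higher in knockout L2C, and all 5 Fbxw members had differences above 0, from 0.132 to 1.41. Outside the members Fbxw15 (0.816), Fbxw22 (1.14), Fbxw26 (0.607), Fbxw27 (0.987), Fbxw28 (0.97) and Fbxw5 (0.733) were also higher. Fbxw2 was lower (−1.14), and the other Fbxw genes tested were not called. Psmb6 was at 11.6 and 9.73 FPKM in controls and 23.8, 20.2 and 18.7 in knockouts (0.91, adjusted p = 0.0100), whereas Psmb1 was at 15.0 and 17.9 against 9.47, 12.2 and 9.76 (−0.61, adjusted p = 0.0428). Of the respiratory members 0 were higher and 3 lower, Ndufs7, Atp5j and Atp5o, while Ndufa11 at 13.3 and 12.7 FPKM in controls and 12.8 to 16.2 in knockouts did not pass the test (adjusted p = 0.829).

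Zp2, also a zona protein, was at 24.9 and 25.1 FPKM in controls and 34.3 to 40.9 in knockouts (0.53, adjusted p = 0.0409), whereas Zp3 was at 15.4 and 15.2 against 9.21 to 13.4 (adjusted p = 0.0832). Cpeb1, which binds the cytoplasmic polyadenylation element, was at 6.53 and 7.50 in controls and 9.93, 10.6 and 13.0 in knockouts (0.60, adjusted p = 0.00500). The oocyte-specific list as a whole had 27 of 44 genes higher and 1 lower at this stage.

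Counted together, 9 of 123 members were higher and 19 lower in knockout L2C, beside 17.0% and 17.2% of genes. A fit of L2C alone called 13 higher and 28 lower of 102, beside 19.0% and 19.5%, and the 28 members called with all stages fitted together were also called in that fit. With no filter on low values 4 were higher and 6 lower. The share called lower, 15.45%, was near that of all genes, whereas the median was −0.2942 against 0.03405. Without control replicate 1 the lower count was 11, and without control replicate 2 it was 10 with 5 higher. No overlap was seen in 66 members, beside 56.8% of genes. Among the left-out ribosomal protein genes 0 of 83 were higher and 58 lower, with a median of −0.8356. With each library scaled to an equal sum the all-gene median was 0.1184 and that of the members −0.3018, with 13 members higher and 9 lower and with 3302 and 1861 calls over all genes in place of 2588 and 2609.

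The change from L1C to L2C used no library of the stages that chose the members. In bulk samples, fewer cells and less RNA per cell cannot be told apart, and the values are shares of a changing total. Med29, a subunit of the Mediator complex, was at 1.22 and 1.76 FPKM in control L1C and 60.2 and 49.4 in control L2C, a rise of 4.49 ± 0.19 (SE, adjusted p = 3.06e-14), and reached 624.3% of its FGO level. In knockouts it was at 1.35, 1.19 and 0.919 in L1C and 30.6, 25.4 and 31.3 in L2C. H2bc15, a histone H2B gene, was at 0.893 and 1.27 in control L1C and 21.7 and 19.2 in L2C (3.37, adjusted p = 1.24e-07). Bc1 rose again, from 3.92 and 1.89 to 38.8 and 20.8 FPKM in controls (2.97, adjusted p = 0.000732) and from 0.614, 0.857 and 3.86 to 18.8, 23.6 and 15.7 in knockouts (3.04, adjusted p = 6.94e-05).

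Ndufa11 rose in both genotypes, from 2.09 and 3.30 to 13.3 and 12.7 FPKM in controls (1.94, adjusted p = 0.000137) and from a range of 2.30 to 3.91 to a range of 12.8 to 16.2 in knockouts (1.92, adjusted p = 1.45e-05).

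Other members went on falling. Dnmt1 was at 256 and 269 FPKM in control L1C and 25.1 and 29.8 in control L2C, a fall of 3.22 ± 0.14 in log2 (adjusted p = 3.58e-14), and at 267 to 320 and 29.1 to 38.1 in knockouts. Ftdc2 went from 24.3 and 26.2 to 2.52 and 3.19 in controls (−2.77, adjusted p = 2.29e-10). Fbxw21 went from 71.1 and 78.8 to 10.2 and 11.4 in controls (−2.69, adjusted p = 1.13e-10). All 4 oocyte-specific members and all 5 Fbxw members fell in controls and in knockouts.

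**Figure D4:**
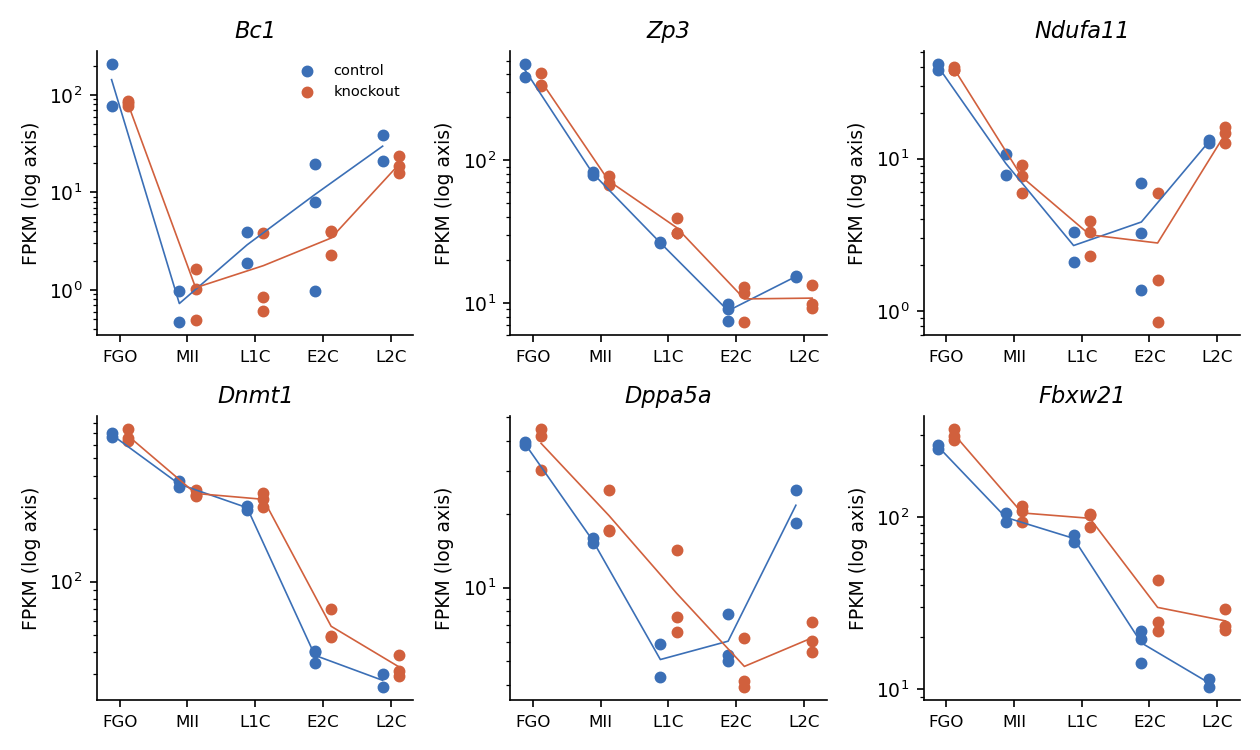
FPKM on a log axis by stage for 6 members, each point a library (controls blue, knockouts orange) and each line through the group means. Bc1 and Ndufa11 rise again by late 2-cell, Dnmt1 and Fbxw21 go on falling, and Dppa5a rises in controls to 25.2 and 18.4 but not in knockouts.

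In controls 47 of 123 members rose and 27 fell from L1C to L2C, beside 33.4% and 35.8% of genes, with a median of 0.4051 against −0.05282. In knockouts 22 rose and 39 fell, beside 33.1% and 34.7%, with a median of −0.2168 against −0.03991. The stages did not overlap in 102 members in controls, beside 84.3% of genes, and in 67 in knockouts, beside 71.9%. The control count differed between members with less and with more shared sequence. Among members under 20% shared sequence 28 of 85 rose and 25 fell in controls, beside the same 33.4% and 35.8% of genes, with a median of 0.272. Among the 38 that share 20% or more, 19 rose and 2 fell in controls, with a median of 0.983. Among the 23 processed pseudogenes tested 11 rose and 0 fell in controls. Among the 83 left-out ribosomal protein genes 64 rose and 7 fell, with a median of 1.298. The parts of shared sequence and of the kind of gene were not tested. The following split is a description, since it is made on the control change and so favours high control values. Of the 47 members that rose in controls 20 rose, 3 fell and 24 did neither in knockouts, with medians of 1.50 in controls and 0.43 in knockouts. Of the 27 that fell in controls 24 fell in knockouts, with a median of −1.48 in both.

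The difference of the L2C minus L1C change between genotypes was tested directly, and it equals the L2C knockout difference minus the L1C one. It was lower in knockouts for 27 of 123 members and higher for 5, beside 14.2% and 14.9% of genes, and was below 0 in 92 members, with a median of −0.51 against 0.05 over all genes. A fit of L1C and L2C alone gave 31 lower and 7 higher of 113, beside 14.4% and 14.9%. Over the members under 20% shared sequence 20 of 85 were lower and 4 higher. With equal sums 19 were lower and 6 higher, and with no filter on low values 11 were lower and 2 higher. The lower count stayed between 18 and 29 and the median between −0.593 and −0.413 when each of the libraries was left out in turn. The higher count was 3 without L1C control replicate 2, L1C knockout replicate 2, L2C control replicate 1 or L2C knockout replicate 3 and 2 without L2C control replicate 2.

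**Figure D5:**
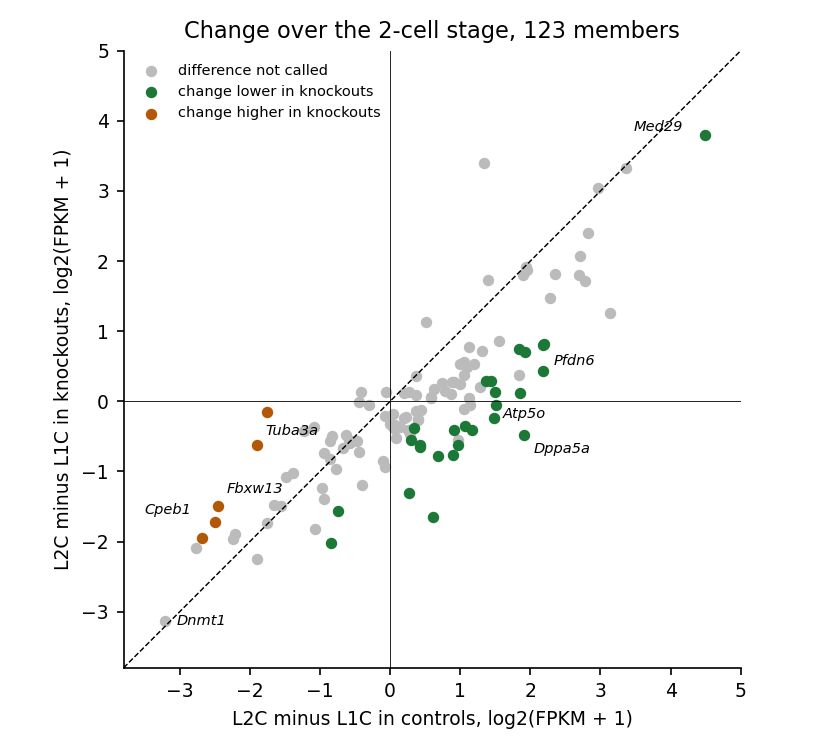
Change from late 1-cell to late 2-cell embryos in log2(FPKM + 1), in controls (horizontal axis) and knockouts (vertical axis), for 123 members, with equal change on the dashed line. Members with a lower change in knockouts (27, green) lie below the line, and those with a higher change (5, orange) above it.

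Dppa5a rose by 1.91 in controls and changed by −0.47 in knockouts (difference −2.38 ± 0.44, adjusted p = 0.000360). Pfdn6 rose by 2.18 and changed by 0.43 (−1.75 ± 0.36, adjusted p = 0.000904), and Atp5o rose by 1.85 and changed by 0.13 (−1.72 ± 0.42, adjusted p = 0.00414). In the opposite direction Tuba3a fell by 1.90 in controls and by 0.63 in knockouts (difference 1.28 ± 0.21, adjusted p = 0.000108). Fbxw13 fell by 2.45 and 1.49 (0.96 ± 0.30, adjusted p = 0.0191), and Cpeb1 fell by 2.50 and 1.73 (0.77 ± 0.18, adjusted p = 0.00309). Fbxw13 missed the threshold without L2C control replicate 2 (0.85) or L2C knockout replicate 3 (0.85). The difference for Bc1 was 0.07 ± 0.90 and that for Dnmt1 0.09 ± 0.18, neither of which passed the test (adjusted p = 0.964 and 0.763).

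Of the respiratory members 5 of 7 had a lower change in knockouts, and of the 104 genes of that list 24 had a lower and 3 a higher one. Mrpl52, Snrpd2 and Psmb1 also had a lower change (−1.18, −1.21 and −1.15). Among the left-out ribosomal protein genes 64 of 83 had a lower and 0 a higher change, with a median of −1.30, whereas among the 44 oocyte-specific products 1 had a lower and 23 a higher one.

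Many members were at 1 FPKM or more in the poly(A) libraries of embryonic day 6.5, a different kind of library whose levels are not compared with the earlier ones. The tissue markers followed the labels, with Pou5f1 at 274 to 694 FPKM in EPI, Ttr at 609 to 1790 in VE and Elf5 at 135 to 184 in EXE, and each at 1.59 or less in the other tissues apart from Pou5f1 at up to 20.5 in EXE. By group mean 89 of 124 members reached 1 FPKM in control EPI and 91 in knockout EPI, 82 in both genotypes in VE, and 85 and 84 in EXE. In every one of the 11 libraries 75 members reached 1 FPKM, while 24 stayed under it, among them Khdc3, Ftdc2, Zp2, Cpeb1, Nlrp2 and the 5 Fbxw members. Atp5j was at 720 to 1200 FPKM in EPI, 901 to 1214 in EXE and 1052 to 1593 in VE. Upp1 was at 467 FPKM in the control and 336 and 432 in the knockout EXE libraries and at 3.13 to 19.2 in the EPI and VE libraries.

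At this stage the knockout effect was called for 0 of 93 members tested in EPI, beside 0.00% of 13376 genes, and for 0 in VE, beside 0.00% higher and 0.00748% lower. At an unadjusted p under 0.05 there were 0 members in EPI and 1 in VE, and fits of each lineage alone called 0 as well, beside 0.0166% higher and 0.00830% lower in EPI and 0.00893% each way in VE. Dppa5a in EPI was at 518 and 321 FPKM in controls and 739 and 641 in knockouts, with no overlap, but did not pass the test (0.75 ± 0.44, adjusted p = 1). No overlap was seen in 16 members in EPI and 16 in VE, beside 24.0% and 24.1% of genes. EXE, with 1 control library, was not tested.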

How the data were processed

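RNA-seq tables of 26 total RNA and 11 poly(A) libraries were used. Values are FPKM as deposited by the authors. In replicate 1 of the control epiblast the deposited values hold 1 number below 0 (Gm24888), replaced by 0. All its other values were read as FPKM. Trim Galore 0.6.6, STAR 2.7.9, StringTie 2.1.7 and mm10 are named, without roles, per the submitters' processing notes. The annotation and filters are not given in the sources used here. Groups came from the sample titles. FPKM keeps no read number, so depth is unknown and the number of libraries limits precision.

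Genes that reached 1 FPKM in 2 or more of the fitted libraries were analysed as log2(FPKM + 1), a scale that understates changes of low genes, with limma 3.58.1 in R 4.3.3 (intensity trend, 1 mean per group, 1 array weight per stage in the total RNA fit, Benjamini-Hochberg adjustment over all genes of a contrast). The 8 EPI and VE libraries were fitted apart without weights. Each comparison was also fitted on its own stages. Of 124 members 123 were tested in the total RNA fit (not Gm9267) and 93 in the other. Member and list choices were made with earlier results of these data known. Fits of the knockout effect were tested on simulated data. With all stages together most changed genes were recovered. Where the spread of a gene varied from stage to stage, 30.3% to 40.2% of the calls of that fit were unchanged genes. This is many more than the threshold allows. The share was 4.4% to 6.8% where the spread changed by 1 factor per stage for all genes. In the first setting fits of 1 stage stayed near the threshold, at 3.1% to 8.1%, but missed many more of the smaller true changes. Counts and p-values of the stage-alone fits therefore stand beside those of the shared fit, and a call missing from a stage-alone fit may be false or may be one that this fit cannot detect. Tables and plots were made with matplotlib 3.10.9 and pandas 2.3.3 under Python 3.11.15.

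Symbols are those of the table, and transcripts and positions are from GENCODE M21 (GRCm38), which holds all 124 members and 55141 of the 55401 identifiers. Named members exclude clone-named models and are the 12 largest falls with at least 5 FPKM in control FGO, up to 3 called members per direction and contrast without overlap and with at least 5 FPKM, up to 2 per gene list, and the 3 genes on each side of the limit. Others were named after their values were seen. One of the 12 largest falls is not reported here. Alternatives were a pseudocount of 0.1, no filter, a mean of at least 5 FPKM, scaling to a sum of 1000000 (TPM), centring on library medians, no weights, a replicate block, each library left out, and other member choices.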

Additional observations from a re-analysis of the deposited data

Results flagged for a closer look

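In 6 named members the change from late 1-cell to late 2-cell embryos differed between genotypes by the test of that difference in limma. It was lower in knockouts for Dppa5a (−2.38 in log2), Pfdn6 (−1.75) and Atp5o (−1.72), and higher for Tuba3a (1.28), Fbxw13 (0.96) and Cpeb1 (0.77). Fbxw13 had an adjusted p of 0.0866 with a replicate block, and Fbxw13 and Atp5o also missed the threshold with no filter on low values. The cause was not tested.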

How the results depend on the processing

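No named result turned its direction under the alternatives run. Values that moved by over 1.5 times follow, with the reported count first, and the cause was not tested. In FGO the 6 higher members became 1 with TPM scaling, 14 centred, 0 at a mean of at least 5 FPKM, 2 without weights, 3 with no filter, 0 with a pseudocount of 0.1, 0 with the stage alone, 14 among members ranked on TPM-scaled values and 1 among coding members. The 4 lower became 2 with TPM scaling, 1 at the mean of 5, 2 without weights and 12 with TPM ranking. In MII the 2 higher became 4 with TPM scaling, 6 centred, 0 at the mean of 5, 0 without weights, 0 alone and 9 with TPM ranking, and the 6 lower became 2 centred, 3 at the mean of 5, 1 without weights, 3 with the pseudocount, 2 alone and 12 with TPM ranking. In L1C the 22 higher became 6 without weights and 9 with no filter, and the 0 lower became 2 with TPM ranking. In E2C the 4 higher became 8 centred, 9 without weights, 0 with no filter and 1 alone, and the 4 lower became 12 without weights, 8 with TPM ranking and 2 among coding members. In L2C the 9 higher became 14 without weights, 4 with no filter, 14 with the pseudocount and 14 with TPM ranking, and the 19 lower became 9 with TPM scaling, 6 with no filter and 34 with TPM ranking. From L1C to L2C the 47 that rose in controls became 30 at the mean of 5 and 93 with TPM ranking, the 22 that rose in knockouts 66 with TPM ranking, and the 39 that fell in knockouts 25 with no filter. For the difference of that change the 5 higher became 2 with no filter and 10 with TPM ranking, and the 27 lower became 11 with no filter. TPM ranking takes 246 members, which include the 124.

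With 1 library left out, counts ranged from 0 to 13 higher and 2 to 4 lower in FGO, 1 to 4 and 2 to 6 in MII, 7 to 18 and 0 to 1 in L1C, 0 to 3 and 2 to 3 in E2C, and 5 to 9 and 10 to 15 in L2C. The change in controls gave 34 to 41 and 21 to 28, that in knockouts 19 to 23 and 34 to 40, its difference 2 to 6 and 18 to 29, the difference between MII and FGO 0 to 1 and 0 to 0, and EPI and VE 0 to 0. Where 1 control was left, it was assumed to vary like the other groups.

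Same-numbered libraries had correlations of deviations from −0.0767 to 0.1416 in the 5 early stages, and 0.5928 in EPI and 0.4287 in VE with 2 pairs each, so the numbers were not taken as pairs. With a replicate block MII gave 4 higher members in place of 2 and the difference of the L2C minus L1C change gave 3 higher in place of 5, while L1C gave 22 higher again. Of the named results, 4 missed the threshold without weights, 6 with no filter, 3 with a pseudocount of 0.1, 2 with TPM scaling, 4 with the stages alone and 1 with a block (Fbxw13). Depth is unknown, and members near 1 FPKM are limited most.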
